A study of Mus musculus with 6 samples.

Results

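The Reg genes encode small secreted proteins that consist of little more than a signal peptide and a C-type lectin domain. Mouse Reg3b and Reg3g are bactericidal or bacteria-binding lectins of the gut epithelium and are known targets of interleukin 22 and STAT3 signalling in the intestine. Reg1 and its close relative Reg2 are best known from the exocrine pancreas, where they rise on injury, and Reg1 is also known from the gastric mucosa. Reg3a is a further member of the Reg3 group, and Reg4 is known from goblet and endocrine cells of the gut. The members were the probes that the scanner files name Reg1, Reg2, Reg3a, Reg3b, Reg3g or Reg4, which gave 6 of the 41174 probes of the array, 1 for each gene.

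Their RNA was measured in epithelial sheets of the forestomach, the squamous-lined part of the mouse stomach, from 3 K5-CreER;Rosa26Sox2/Sox2 mutants and 3 K5-CreER controls. Both groups carried K5-CreER, a tamoxifen-dependent recombinase under the keratin 5 promoter, which is active in basal cells of stratified epithelia, and only the mutants carried the Sox2 allele at Rosa26. Per the labels all mice came from a mixed 129/Sv and C57/BL6 background, received 2 doses of tamoxifen at 7 weeks and were 12 weeks old. Each array set the tissue's RNA in Cy5 against 1 common reference RNA in Cy3, made from 11 mouse cell lines, and the labels do not say whether RNA of several mice was pooled or who shared a cage, so the p-values reflect only how far these arrays spread, and some of that spread may be technical. The single Sox2 probe gave log2 ratios of 5.82 ± 0.14 in mutants and 6.24 ± 0.15 in controls (SD, n = 3 each). The difference of -0.43 did not pass (limma, adjusted p = 0.143). The labels do not say whether that probe reads the transgene, so it does not check them.

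The 6 arrays were not equally far apart, and this bears on every test that follows. The scaled median absolute distance over probes was 0.104 log2 units between mutants 2 and 3 and 0.156 between controls 1 and 2, against 0.326 to 0.730 for every other pair. Control 3 had 62.6% of probes well above background in the sample channel, against 73.1% to 76.2% on the other 5 arrays, and it was scanned on another day. It also held far less RNA of the glandular stomach, the columnar part of the organ next to the forestomach. The 3 mutant arrays shared 1 slide that held no control, and the effects of slide and of genotype cannot be told apart. In bulk tissue, fewer cells of a type and less RNA per cell cannot be told apart either.

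The 6 members and Reg3d, 7 genes, were matched by symbol in the RefSeq annotation of GRCm38.p6, which places 6 of them side by side on chromosome 6 within 98.0 kb, in the order Reg3b, Reg3d, Reg3a, Reg2, Reg1, Reg3g, and Reg4 alone on chromosome 3. The 250 bases before the annotated start are printed for the 3 members that gave a signal, because these genes lie in 1 cluster with neighbours that gave none. They come from the RefSeq table of GRCm38.p6, 5′ to 3′ on the strand of the gene, in lower case with matches to TATAAAA and TTCNNNGAA in capitals.
Reg1, chr6:78425733-78425982, plus strand: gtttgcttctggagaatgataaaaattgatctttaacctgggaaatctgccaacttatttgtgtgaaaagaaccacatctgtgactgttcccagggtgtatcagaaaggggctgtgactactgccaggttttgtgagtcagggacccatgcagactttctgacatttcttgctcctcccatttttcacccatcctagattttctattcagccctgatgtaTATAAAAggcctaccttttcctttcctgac
Reg3b, chr6:78370635-78370884, plus strand: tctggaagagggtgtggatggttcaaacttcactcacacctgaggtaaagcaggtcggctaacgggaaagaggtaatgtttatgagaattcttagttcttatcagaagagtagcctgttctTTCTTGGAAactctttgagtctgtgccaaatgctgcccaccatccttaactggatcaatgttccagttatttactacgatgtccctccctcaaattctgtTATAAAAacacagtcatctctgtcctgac
Reg3g, chr6:78468875-78469124, minus strand: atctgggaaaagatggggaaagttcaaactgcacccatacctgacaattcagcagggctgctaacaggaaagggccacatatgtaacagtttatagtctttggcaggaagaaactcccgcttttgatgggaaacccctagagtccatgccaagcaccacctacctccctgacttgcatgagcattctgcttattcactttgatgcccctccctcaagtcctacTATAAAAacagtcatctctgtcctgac
The windows of Reg3b and Reg3g were the most alike of the 21 pairs, with 68.4% identical columns in a global alignment, against 43.8% to 55.6% for the remaining pairs. The pair Reg1 and Reg2 came next with 55.6%, although Reg2 gave no signal here. The TATA motif TATAAAA, searched on both strands, stood 27 to 30 bases before the start of Reg1, Reg2, Reg3b and Reg3g and was found in 4.98% of all 32851 promoter windows of this length. The STAT motif TTCNNNGAA was found in Reg3b, 129 bases before the start, and in Reg3d, 238 bases before it, and in 7.02% of all windows. The SOX motif CATTGT was in none of the 7 windows and in 3512 of the 32851. The NF-kB motif, GGG and CC with any 5 bases between them, was in Reg3g alone of the 7, 123 bases before the start, and in 45.8% of all windows. None of these matches overlapped. The letters describe these windows and say nothing of binding.

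The family split into 3 members with a clear signal in mutant forestomach and 3 members with none in either group. Reg1, Reg3b and Reg3g were well above background on all 3 mutant arrays, whereas Reg2, Reg3a and Reg4 were well above background on 0 of 6. In the log2 ratio of sample over reference, Reg1 was 35.9-fold higher in mutants and Reg3g 4.39-fold, and of these Reg1 passed the threshold. Reg3b, which no control array measured above background, passed too. In the sample channel it was 74.7-fold higher in mutants with controls set to a floor, a fold that is not a strict lower limit. The threshold was an adjusted p of 0.05 in limma over 20559 genes. Of those genes 1.40% passed it upwards, 1.43% downwards and 2.83% in either direction. Of the same 20559 genes, 10394 had a positive difference and 4902 an unadjusted p under 0.05, the background for the list counts below. The members that entered had to be well above background on at least 3 of 6 arrays, and Reg3b entered through the mutants alone, so its difference was partly set by that filter.

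**Figure D1:**
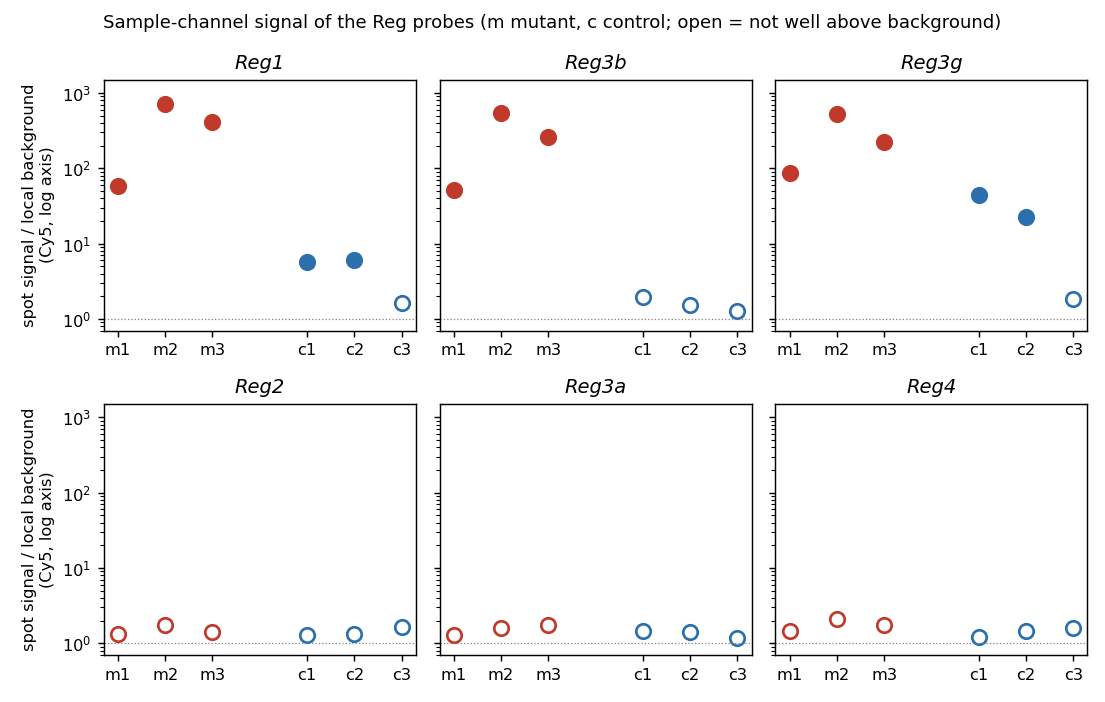
Spot signal over local background in the sample channel (log axis) for each Reg probe on every array, mutants left of controls. Filled points were well above background. Reg1, Reg3b and Reg3g reach 51.7 to 720 on mutant arrays, and Reg2, Reg3a and Reg4 stay between 1.18 and 2.08 on all 6.

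Reg1, the pancreatic and gastric member, was measured by a probe at chr6:78378527-78378586 of mm9, the build that the file headers give. Its spot signal in the sample channel was 57.4, 720 and 413 times local background on mutants 1 to 3, against 5.7, 6.04 and 1.61 times on controls 1 to 3. Every mutant array was above every control array, mutant 1 was the lowest mutant, and control 3 was not well above background. The log2 ratio was 4.52, 7.32 and 6.94 in mutants and 1.46, 1.52 and 0.31 in controls. The groups averaged 6.26 ± 1.52 in mutants and 1.10 ± 0.68 in controls (SD, n = 3 each). The reference spot of Reg1 was well above background on 3 mutant arrays and on 0 control arrays. The control ratios therefore divide by a reference signal that was not well above background. The log2 difference was 5.17 (SE 0.77, 95% interval 3.30 to 7.03, limma, adjusted p = 0.0309). The groups did not overlap. Among all genes measured on each array 37.9% had groups that did not overlap, and for 19.6% the mutants lay wholly above. The call for Reg1 depended on single arrays: the adjusted p was 0.125 without mutant 2, 0.132 without mutant 3, 0.113 without control 1 and 0.123 without control 2. Without mutant 1 the difference was 6.03, a 65.6-fold rise in place of 35.9-fold, and without control 3 it was 4.77, each still past the threshold.

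Reg3b, the antibacterial lectin also called pancreatitis-associated protein, had signal on mutant arrays alone. Its probe lies at chr6:78323323-78323382 of mm9. The sample-channel signal was 51.7, 535 and 261 times background on mutants 1 to 3, against 1.93, 1.52 and 1.28 times on controls 1 to 3. All mutants were well above background and no control was, so that Reg3b had no measured level in controls. The log2 ratio was 4.64, 6.11 and 5.64 in mutants and 0.41, 0.39 and -0.06 in controls. It averaged 5.46 ± 0.75 in mutants and 0.25 ± 0.26 in controls (SD, n = 3 each), a fitted log2 difference of 5.21 (SE 0.38, limma, adjusted p = 0.00488). This value and its p are taken against control signals at background, and the probe entered through the mutants alone. The reference spot of Reg3b was well above background on mutants 2 and 3 alone. The call was lost with slide as a random block (adjusted p = 0.134) and with the near-identical arrays averaged (adjusted p = 0.208). For a fold in the sample channel alone, each control array was set to a floor. The floor was the lowest signal that was well above background there or the probe's own, whichever was higher. Against it Reg3b was 74.7-fold higher in mutants. A probe that is not well above background can read above that floor, so the fold is not a strict lower limit. It was 141-fold without mutant 1 and 43.1-fold without mutant 2. With single arrays left out the adjusted p of the ratio ran from 0.00306 to 0.0437, under the same limit.

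Reg3g, the other antibacterial Reg3 lectin, was many times above background on controls 1 and 2 already, and its spread over the controls was as large as its difference between the groups. Its probe lies at chr6:78416420-78416479 of mm9. The sample-channel signal was 85.3, 534 and 223 times background on mutants 1 to 3, against 44.5, 22.8 and 1.85 times on controls 1 to 3. The lowest mutant stood close to the highest control, and control 3 was not well above background. The log2 ratio was 4.23, 4.88 and 4.73 in mutants and 4.20, 3.29 and -0.05 in controls, with means of 4.61 ± 0.34 in mutants and 2.48 ± 2.24 in controls (SD, n = 3 each). The log2 difference of 2.14 (SE 1.04) did not pass (limma, adjusted p = 0.268), and its 95% interval ran from -0.39 to 4.66, which includes 0. Without control 3 the difference was 0.87, which is 1.83-fold (adjusted p = 0.161). In the authors' deposited table of log2 ratios control 1 stood at 5.07, above the 4.97, 4.97 and 4.83 of the columns for mutants 1 to 3, so that the groups overlapped there.

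**Figure D2:**
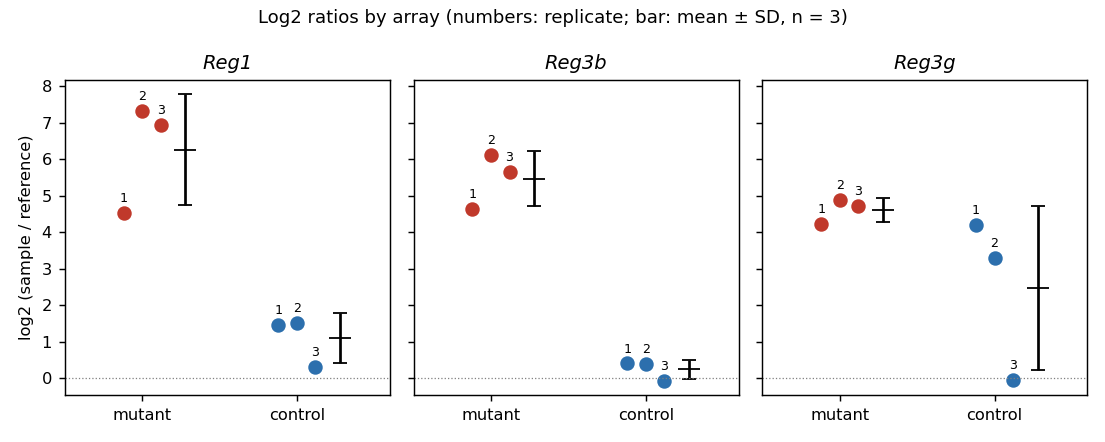
Log2 ratio of sample over reference for Reg1, Reg3b and Reg3g on every array, mutants left of controls. Numbers give the replicate, and the bar to the right of each group is the mean ± SD (n = 3). The Reg1 and Reg3b groups lie far apart, whereas controls 1 and 2 of Reg3g, at 4.20 and 3.29, lie just below the mutants and control 3 lies at -0.05.

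The members were set against each other by the difference of their log2 ratios on each array. On mutant arrays Reg1 minus Reg3b was 0.80 ± 0.80 and Reg3b minus Reg3g was 0.85 ± 0.41 (SD, n = 3). Reg3b was at background on all 3 controls, so the matching control values are set by the background and no comparison is drawn from them. Reg1 minus Reg3g was 1.65 ± 1.18 in mutants and -1.38 ± 1.59 in controls (SD, n = 3 each), a difference of 3.03 (exact two-sided permutation test, p = 0.2, or 0.3 adjusted over 3 pairs). Neither gene was well above background on control 3, and without it the difference was 3.90. The reference signal was higher in mutants by 0.57 log2 units for Reg1 and 1.59 for Reg3g, and that gap is part of the 3.03. In the sample channel alone the rises were 5.74 for Reg1 and 3.72 for Reg3g. The smallest p that 3 arrays against 3 allow is 0.1, so the test could not pass the threshold.

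Reg2, Reg3a and Reg4 had no signal that could be compared. Their spots were 1.18 to 2.08 times local background over the 18 values, in the sample channel of mutants and controls alike. Reg2, the close relative of Reg1, lies at chr6:78357959-78358018 of mm9 and Reg3a at chr6:78333635-78333694, between Reg3b and Reg1. The intestinal member Reg4 has a probe that the files place across chr3:98037005-98040251, an interval longer than its 60 bases. The log2 ratios averaged 0.02 ± 0.15 in mutants and 0.04 ± 0.11 in controls for Reg2, 0.24 ± 0.25 in mutants and 0.14 ± 0.16 in controls for Reg3a, and 0.20 ± 0.20 in mutants and -0.10 ± 0.12 in controls for Reg4 (SD, n = 3 each). With no filter on dim probes they entered the fit and none passed (limma, adjusted p = 0.958 for Reg2, 0.759 for Reg3a and 0.290 for Reg4). These values bound the signal of the probes and do not show that the genes were silent.

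The reference channel also stood higher on mutants 2 and 3 than on any control for the members with a signal, although the reference RNA was the same on every array. In the reference channel the Reg3g spot was 6.17, 27.6 and 11.4 times background on mutants 1 to 3, against 3.44, 2.62 and 2.1 times on controls 1 to 3. For Reg3b the reference spot was 2.19, 12.1 and 6.89 times background on mutants and 1.81, 1.75 and 1.41 times on controls, and for Reg1 it was 2.68, 6.18 and 4.93 times on mutants and 3.02, 2.89 and 1.27 times on controls. For all 3 genes mutant 2 was highest and mutant 1 lowest among mutants in both channels. The reference spot was well above background on no control for Reg1 and Reg3b, and on 1 control for Reg3g. The reference differences of Reg1 and Reg3b are therefore taken against control signals that were not well above background. After loess and Aquantile the reference signal was higher in mutants by 0.57 log2 units for Reg1, 1.15 for Reg3b and 1.59 for Reg3g, and none of these passed (limma, adjusted p = 0.606, 0.585 and 0.560). Of all genes 0.136% passed in that channel, 0.102% higher and 0.0340% lower in mutants. A reference signal higher in mutants by at least as much as that of Reg3g was seen for 0.243% of the tested genes, and for Reg1 for 1.72%. Falls of that size were not counted. Why the reference signal differed was not tested.

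The ratio gave a smaller difference than the sample channel alone. On the log2 scale the sample channel, Aquantile-normalized, differed by 5.74 (SE 0.99, limma, adjusted p = 0.0566) for Reg1, a 53.4-fold difference that did not pass. For Reg3b it was 6.36 (SE 0.81, adjusted p = 0.0274) and for Reg3g 3.72 (SE 1.18, adjusted p = 0.164), against 0.822% of all genes called higher, 0.861% lower and 1.68% either way on that scale. Reg3b was not called there without mutant 2, mutant 3, control 1 or control 2 (adjusted p = 0.0802, 0.141, 0.127 and 0.136). The Reg3g difference in the sample channel was 13.2-fold, against 4.39-fold in the ratio, with a 95% interval of 0.86 to 6.58 log2 units before adjustment. Without control 3 it was 5.96-fold, and it did not pass either (adjusted p = 0.143).

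**Figure D3:**
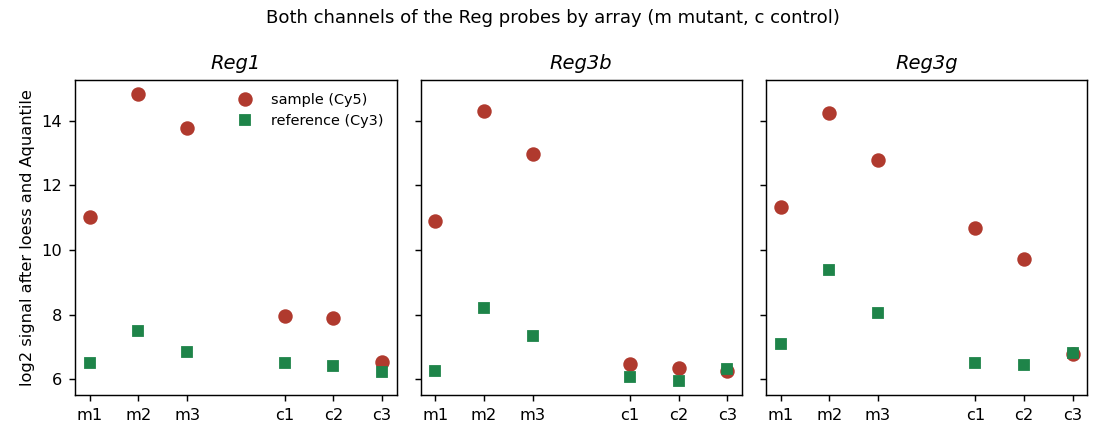
Log2 signal after loess and Aquantile in the sample channel (circles) and the reference channel (squares) for Reg1, Reg3b and Reg3g on every array, mutants left of controls. The reference squares are highest on mutant 2 for each gene, at 7.51, 8.21 and 9.37, although that RNA was common to all arrays.

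Markers of other tissues and cells were set beside the Reg genes, since Reg1 and Reg3g are also known outside squamous epithelium. For the squamous label, all 20 squamous markers entered and Krt5, the basal keratin, had log2 ratios of 3.45, 3.18 and 2.97 in mutants and 3.58, 3.56 and 3.71 in controls. The summed sample-channel signal of 21 glandular stomach markers was 342000, 1380000 and 976000 on mutants 1 to 3, against 2000000, 1860000 and 9570 on controls 1 to 3. Of the 21, 20 were well above background on both controls 1 and 2 and 14 on control 3. Atp4b, the proton pump subunit of parietal cells, had log2 ratios of 2.95, 4.23 and 4.03 in mutants and 4.47, 4.27 and 0.53 in controls. Of the 21, 0 passed in limma and 2 had an unadjusted p under 0.05, against 4902 of all 20559 genes tested. The median log2 difference was 0.46, against 0.01 over all genes tested.

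The glandular sum and the Reg genes were set side by side on each array. Among mutants, mutant 2 was highest and mutant 1 lowest for the glandular sum and for Reg1, Reg3b and Reg3g, and among controls, control 3 was lowest for the glandular sum, Reg1 and Reg3g. Between groups, the glandular sum of every mutant was below that of controls 1 and 2 and above that of control 3, while the Reg1 signal of every mutant was above that of all 3 controls. Without control 3 the glandular median was -0.63, and Reg1 stood at 4.77 log2 units (limma, adjusted p = 0.0425). The part of glandular tissue in the levels of Reg1, Reg3b and Reg3g was not tested.

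**Figure D4:**
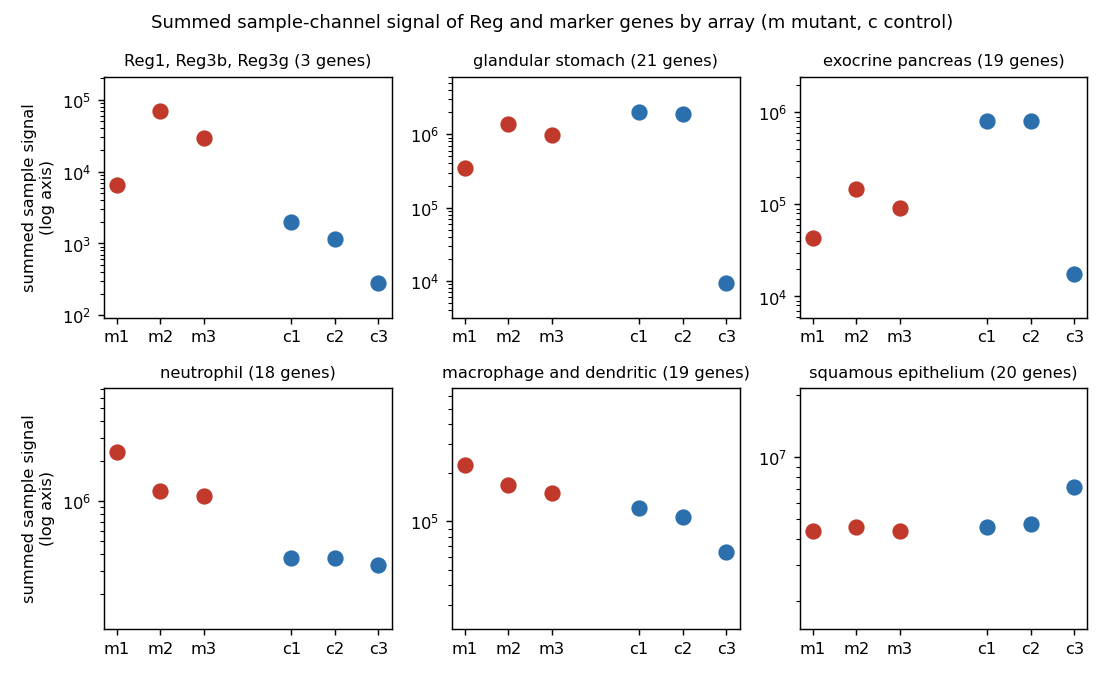
Summed sample-channel signal (log axis) of the Reg genes that entered and of marker lists on every array, mutants left of controls. The glandular and pancreatic sums fall to 9570 and 17700 on control 3, and the neutrophil sum lies between 1100000 and 2340000 on mutants and between 331000 and 376000 on controls.

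Markers of the exocrine pancreas, the main known site of Reg1 and Reg2, gave no called rise. Of 19 that entered, 7 had a positive difference, 0 passed in limma, 2 had an unadjusted p under 0.05, and the median was -0.13 log2 units. Their summed signal was 42900, 148000 and 91400 on mutants 1 to 3, against 805000, 806000 and 17700 on controls 1 to 3, and the colipase gene Clps made up between 1.24% and 79.2% of it. The trypsinogen gene Prss2 had log2 ratios of 0.01, -0.02 and 0.07 in mutants and 2.23, 2.18 and 0.14 in controls (limma, adjusted p = 0.178). Prss3, another trypsinogen gene, stood at -2.23 (adjusted p = 0.128), or at -2.80 in the sample channel, where it was called lower (adjusted p = 0.0456), and the carboxypeptidase gene Cpa1 at 0.35 (adjusted p = 0.242). Hdc, which makes histamine in gastric endocrine and mast cells, stood at 1.31 (adjusted p = 0.292). Of the 12 gastric endocrine markers that entered, 3 had a positive difference, Hdc among them, and the median was -0.14 log2 units.

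Some myeloid markers rose in mutants. The summed signals of the neutrophil and the macrophage lists were highest on mutant 1, the lowest mutant for Reg1, Reg3b and Reg3g, though single markers such as Cd68 were lowest there among mutants. Of 18 neutrophil markers 16 had a positive difference, against 10394 of all 20559 genes tested. Of the 18, 3 passed upwards, against 1.40% of all genes tested, and the median was 1.54 log2 units. The 3 were the calprotectin subunit gene S100a8 (7.85), the resistin-like gene Retnlg (3.69) and the formyl peptide receptor gene Fpr1 (2.35), with adjusted p-values of 0.0034, 0.00598 and 0.0369 in limma. Retnlg and Fpr1 were well above background on 0 control arrays, so they entered through the mutants alone, their differences are taken against background, and their passing is a description. S100a8 is also made by activated keratinocytes. Without S100a8 and S100a9 the summed signal of the other 16 was 1300000, 416000 and 424000 on mutants 1 to 3, against 236000, 244000 and 247000 on controls. Of 19 macrophage and dendritic cell markers 14 had a positive difference, against the same 10394 of 20559. Of the 19, 2 passed upwards, against 1.40% of all genes tested, with a median of 0.49 log2 units. The 2 were Cd68 (1.49) and Csf1r (0.75), with adjusted p-values of 0.0166 and 0.0488 in limma. The other Csf1r probes stood at 0.56 and 0.04 with no call. Cd207 (-0.46), H2-Ab1 (-0.26), C1qc (-0.20), Aif1 (-0.18) and H2-Aa (-0.07) were lower in mutants in the ratio, with no call. In the sample channel Cd207 and Aif1 were lower too, while H2-Ab1 (0.60), C1qc (0.37) and H2-Aa (0.09) were higher, with no call. There 2 of each list were called higher, S100a8 and S100a9, and Cd68 and C1qa, against 0.822% of all genes tested. Retnlg, Fpr1 and Csf1r were not called there (limma, adjusted p = 0.064, 0.129 and 0.0917). The part of these cells in the Reg levels was not tested.

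The pathway known to induce Reg3 genes in the intestine showed no called change. Of 30 genes of interleukin 22, 17 and 6 signalling, 25 entered, 17 had a positive difference, and 0 passed, at an adjusted p of 0.05 in limma, with a median of 0.25 log2 units. At an unadjusted p under 0.05 there were 6, against 4902 of all 20559 genes tested, of which 10394 had a positive difference. Il22 was not well above background on any array with either of its probes. Il6 was well above background on 2 mutant arrays and on 0 control arrays, and did not enter.

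Of the ligands, Il17a, a cytokine of Th17 and innate lymphocytes, was well above background on all 3 mutant arrays and on 0 controls, with log2 ratios of 2.79, 0.74 and 0.79 in mutants and 0.45, 0.49 and 0.19 in controls (limma, adjusted p = 0.289). Mutant 1 stood apart from the other mutants. Il23a, a subunit of interleukin 23, had the same pattern, at 1.87, 0.16 and 0.36 in mutants and -0.64, -0.73 and -0.32 in controls (adjusted p = 0.150). For both cytokines the highest mutant was mutant 1, the array with the lowest Reg1 and Reg3b among mutants. Both genes entered through the mutants alone, so their differences are taken against background. The part of this pathway in the Reg levels was not tested.

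The interleukin 22 receptor gene Il22ra1 had log2 ratios of 0.34, 0.18 and 0.15 in mutants and 0.38, -0.02 and 0.35 in controls, a difference of -0.01 (adjusted p = 0.968). Stat3 stood at 0.32 (adjusted p = 0.301), the kinase gene Jak2 at 0.50 (adjusted p = 0.146), the feedback inhibitor gene Socs3 at 0.53 (adjusted p = 0.167) and the NF-kB cofactor gene Bcl3, a STAT3 target, at 1.93 (adjusted p = 0.0912). Socs3 was higher on each mutant array, at -0.04, -0.66 and -0.61, than on each control array, at -0.91, -1.03 and -0.98. Extl3, described as a receptor of Reg proteins, stood at 0.34 (adjusted p = 0.518), with controls 1 and 2 inside the range of the mutants.

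Other antimicrobial genes of mucosa rose beside Reg1 and Reg3b, though only some of them. Of 20 that entered 15 had a positive difference, against 10394 of all 20559 genes tested. Of the 20, 4 passed upwards, against 1.40% of all genes tested, and the median was 1.40 log2 units. Besides S100a8 these were the beta-defensin genes Defb6 (4.51, adjusted p = 0.0184) and Defb3 (4.49, adjusted p = 0.0318) and the lactoperoxidase gene Lpo (1.98, adjusted p = 0.0245), all in limma. Lcn2, the siderophore-binding lipocalin, stood at 2.49 and did not pass (adjusted p = 0.0558). In the sample channel 6 of the list were called higher, against 0.822% of all genes tested, with a median of 2.20. Among them were S100a9 (2.23, limma, adjusted p = 0.0163) and Defb14 (2.17, adjusted p = 0.0121). Their ratios stood at 0.04 and -0.26, with no call. Without control 3 the median of the list was 0.59. These lists share members and had been chosen with results of these arrays known, so their counts are a description.

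Over the 6 arrays the genes with a profile closest to Reg3b were Uox, Defb6 and Il19, by the root mean square difference of log2 ratios after centring each gene, which was 0.478, 0.599 and 0.646 log2 units among 15910 named genes. Uox encodes urate oxidase and Il19 a cytokine of the interleukin 10 family. For Reg1 they were Defb6 (0.721), Uox (0.952) and the endocytosis gene Ehd3 (1.03), further off than Reg3b itself at 0.519. For Reg3g they were Igha, the constant region of the IgA heavy chain (0.315), the small GTPase gene Arl14 (0.328) and Prom1, a protein of membrane protrusions (0.402). None of those 3 passed (limma, adjusted p = 0.189, 0.338 and 0.346). Reg3g lay 1.90 from Reg1 and 1.93 from Reg3b. Every distance to Reg3b includes its control values, which are set by the background, so the distances to Reg3b are a description only.

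Genes without a signal lay between those with one. Reg3d, which lies between Reg3b and Reg3a and is not among the 6 members, was not well above background on any array, with log2 ratios of 0.00 ± 0.11 in mutants and -0.00 ± 0.08 in controls (SD, n = 3 each). Ctnna2, the catenin gene on the same chromosome chosen as a neighbour, had log2 ratios of 0.91, 3.15 and 3.16 in mutants, against 4.50, 4.35 and 4.49 in controls. All mutants were lower than all controls, but the difference of -2.04 did not pass (limma, adjusted p = 0.124), nor did that of its second probe, at -2.49 (adjusted p = 0.0599 with each probe tested on its own). The neighbours Lrrtm1 and Lrrtm4 did not enter.

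**Figure D5:**
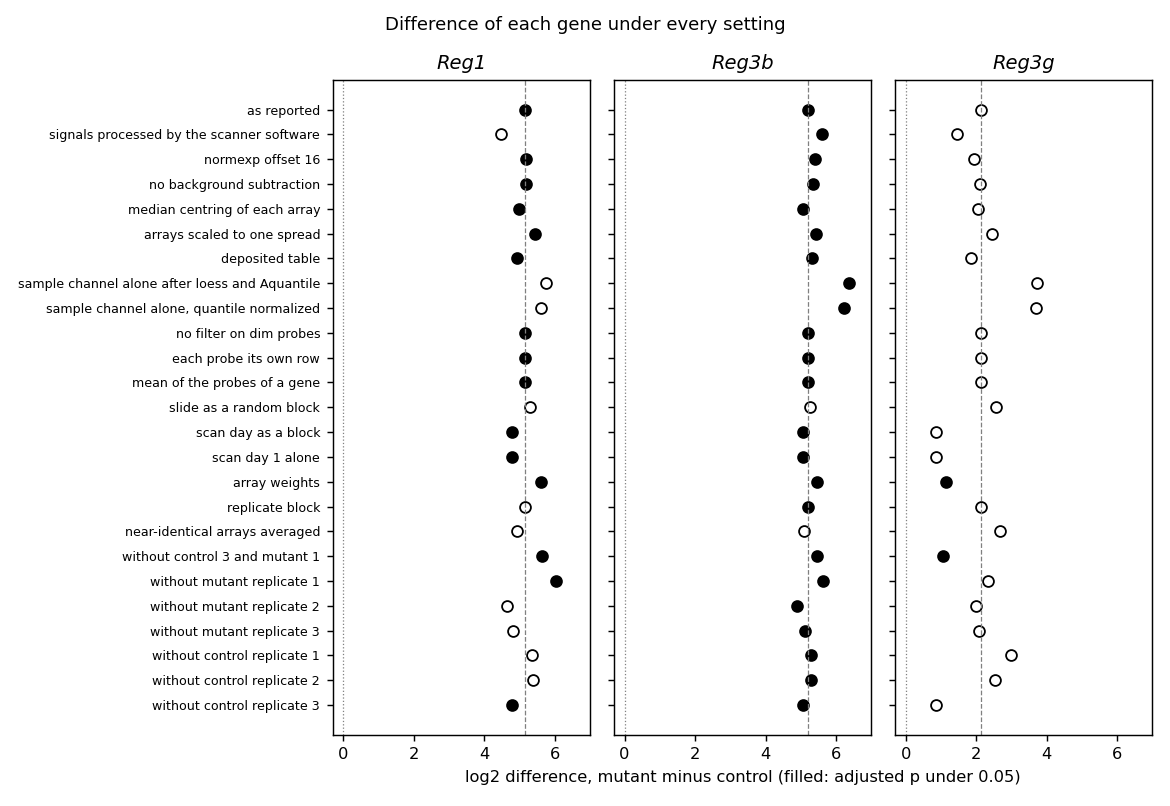
Log2 difference of Reg1, Reg3b and Reg3g, mutant minus control, under each processing setting. Filled points passed an adjusted p of 0.05 in limma, the dashed line is the reported value and the dotted line is 0. The difference stays positive for all 3 genes, runs from 4.48 to 6.03 for Reg1, from 4.89 to 6.36 for Reg3b and from 0.87 to 3.72 for Reg3g. The 6.36 and the 3.72 come from the sample channel alone. In the ratio Reg3b reaches 5.63, without mutant 1, and Reg3g 3.00, without control 1.

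How the near-identical arrays were counted changed both calls. With controls 1 and 2 averaged and mutants 2 and 3 averaged, which leaves 2 values per group, Reg1 stood at 4.93 (limma, adjusted p = 0.438) and Reg3b at 5.08 (adjusted p = 0.208), and no gene was called (0 in limma, though 2195 had an unadjusted p below 0.05). With slide as a random block Reg1 stood at 5.30 (adjusted p = 0.507) and Reg3b at 5.26 (adjusted p = 0.134), and 4 genes were called. On the arrays of the first scan day alone, which leaves out control 3, Reg1, Reg3b and Reg3g stood at 4.77, 5.06 and 0.87, and 1482 genes were called. If each near-identical pair came from 1 animal, the p-values given above are too small.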

How the data were processed

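Spot intensity values of 6 two-colour Agilent mouse arrays were used as deposited: the mean and processed signal and the local background median of each channel, with the sample in Cy5 and the reference in Cy3, per the labels. Per the file headers they were made with Agilent Feature Extraction 10.5.1.1, and control 3 with 10.7.3.1. Version 9.1 is given by the submitters' processing notes. The authors also deposited a table of log2 ratios, whose normalization and centring are not given in the sources used here. Compared with the scanner values, every column held sample over reference, with medians of 0.026 to 0.06 and slopes of 0.978 to 1.17. The columns named for mutants 1 and 3 appear exchanged: the first correlated at 0.973 with the array of mutant 3 and at 0.886 with its own, the second at 0.969 with that of mutant 1 and at 0.881 with its own. Statements on single mutants follow the scanner files.

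Background was corrected by normexp with an offset of 50, and ratios were loess-normalized within arrays in limma 3.58.1 under R 4.3.3. Control spots and outlier spots had no weight and did not enter the fit, and replicate spots were averaged. A probe entered when its Cy5 signal was well above background on 3 or more of the 6 arrays, with 2 or more values per group. The brightest probe stood for a gene. Of 41174 probes, 32699 were named through RefSeq (GRCm38.p6) and 8475 kept the name of the files. Groups were compared with lmFit and eBayes, two-sided, with Benjamini-Hochberg adjustment over 20559 genes. Differences are mutant minus control. The fit has 4 residual degrees of freedom, and the number of arrays limits its precision. For a gene with no control array well above background, the folds against a floor use the sample channel and leave the reference out. They are not strict lower limits. The sample was in Cy5 on every array, so a dye bias equal on all arrays is common to both groups. The dyes were never swapped, and a bias that differed between arrays was not tested. On simulated data of 20559 genes with the fitted spread of each gene, the test found 44% of the genes that were shifted by 1 log2 unit. It found 92% at 2 units and 100% at 4 units, with 6 false calls. The simulated arrays were independent of each other and held no near-identical pairs. These rates therefore check the code and do not give the error rate on the real arrays.

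Members, lists and tests were chosen with earlier results of these data known. The rule for other named genes takes the 4 smallest p-values of a list and a few defining markers, and per member the 3 genes with the closest profile. Other settings varied the background correction, the normalization, the source table, the channel, the filter, probes of a gene, slide, scan day, array weights, replicate number, near-identical arrays and single arrays.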

Additional observations from a re-analysis of the deposited data

How the results depend on the processing

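The differences of Reg1, Reg3b and Reg3g were positive under all alternatives that gave a value. With probes required to be well above background on all 6 arrays, no Reg gene entered. In the ratio, Reg1 was not called with the scanner software's processed signals (4.48), from Aquantile-normalized (5.74) or quantile-normalized (5.60) sample signals, with slide as a random block (5.30), with the near-identical arrays averaged (4.93) or with the replicate block (5.17). Reg3b was not called with slide as a block (5.26) or the near-identical arrays averaged (5.08). Reg3g was called with array weights (1.15) and without control 3 and mutant 1 together (1.06). Leaving out single arrays gave 4.63 to 6.03 for Reg1, 4.89 to 5.63 for Reg3b and 0.87 to 3.00 for Reg3g. The number of Reg genes called, 2 as reported, was 1 with processed signals, with either sample-channel version and with the replicate block, 0 with slide as a block or near-identical arrays averaged, 3 with array weights and without control 3 and mutant 1, and 1 to 2 without single arrays.

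In the sample channel Reg1 was called with array weights (6.32), without control 3 and mutant 1 (6.36) and without mutant 1 (6.83), and Reg3g with array weights (3.35) and without control 3 and mutant 1 (3.31). Reg3b was not called there with slide as a block (6.38), the replicate block (6.36) or near-identical arrays averaged (5.93). Without single arrays the ranges were 4.93 to 6.83 for Reg1, 5.57 to 7.28 for Reg3b and 2.58 to 4.54 for Reg3g. The number of Reg genes called there, 1 as reported, was 3 with array weights and without control 3 and mutant 1, 0 with slide as a block, the replicate block or near-identical arrays averaged, and 0 to 2 without single arrays.

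Over all genes, limma called 581 in the ratio, against 326 with processed signals, 265 with median centring, 346 and 305 in the sample channel after Aquantile and quantile normalization, 4 with slide as a block, 1482 with scan day as a block or alone, 8589 with array weights, 137 with the replicate block, 0 with near-identical arrays averaged and 7730 without control 3 and mutant 1, and 34 to 1482 without single arrays. In the sample channel it called 346, against 0 with slide as a block (881 at an unadjusted p under 0.05), 1504 with scan day as a block or alone, 8808 with array weights, 56 with the replicate block, 0 with near-identical arrays averaged (1739 unadjusted), 8194 without control 3 and mutant 1 and 5 to 1504 without single arrays. The cause was not tested. Deviations of same-numbered mutant and control arrays correlated at 0.0048, 0.019 and 0.13, so the numbers were not taken as pairs. Signal over background limits Reg2, Reg3a and Reg4 on all arrays, Reg3b in controls, and the reference signal of Reg1 and Reg3b in controls.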

Other observations

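Other C-type lectin genes showed no called change beside the Reg genes. Of 26 such genes 19 entered, 16 had a positive difference and 0 passed an adjusted p of 0.05 in limma. At an unadjusted p under 0.05 there were 7, and the median was 0.55 log2 units, or 0.23 without control 3. Over all 20559 genes tested, 10394 were positive and 4902 had an unadjusted p under 0.05. The smallest adjusted p-values were those of the myeloid receptor genes Clec4n (1.95, adjusted p = 0.0995), Clec5a (1.46, adjusted p = 0.113) and Clec4d (1.95, adjusted p = 0.121), followed by the macrophage mannose receptor gene Mrc1 (1.59, adjusted p = 0.150). The summed signal of the list was 42900, 34100 and 37900 on mutants 1 to 3, against 26800, 23100 and 13700 on controls 1 to 3.

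Further marker lists gave no called gene in the limma fit of the ratio. The unadjusted p was under 0.05 for 1 intestinal, 1 endocrine, 3 lymphocyte and 8 squamous genes, against 4902 of all 20559 genes tested. Of 16 intestinal markers 6 were positive (median log2 difference -0.09), and the intestinal mucin gene Muc2 stood at -0.06 (adjusted p = 0.803), well above background on 2 mutant arrays and 1 control array. Of 12 gastric endocrine markers 3 were positive (median -0.14), and the sum was 12400, 27600 and 16100 on mutants 1 to 3, against 92300, 86400 and 10900 on controls 1 to 3. Of 16 lymphocyte markers 9 were positive (median 0.16). Of 20 squamous markers 4 were positive (median -0.57, or -0.38 without control 3).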
